A study of Mus musculus with 8 samples.

Results

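The loci of 3 genes of tissue repair, Il10, Tgfb1 and Vegfa, were examined for acetylated histone H3 (H3ac) in RAW 264.7 cells. The members are the peaks of 4 library peak lists that touch 3 windows on mouse build GRCm39. The windows were chromosome 1 from 130935000 to 130960000 for Il10, chromosome 7 from 25378000 to 25408000 for Tgfb1 and chromosome 17 from 46322000 to 46360000 for Vegfa. They span 25, 30 and 38 kb. In all, 56 peaks of 193863 lay in these windows. Peaks that overlapped by at least 1 bp, in any library, were merged into regions, and 20 of 81544 regions belonged to the windows: 2 at Il10, 11 at Tgfb1 and 7 at Vegfa. Regions are numbered from the lowest coordinate within each window. Genes are not named in the peak lists and GRCm39 annotation was not used here, so a peak is placed in a window and not at a promoter, exon or intron.

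RAW 264.7 is a mouse macrophage-like line that arose from a tumour induced by Abelson leukaemia virus. The labels give the treatment as Gel or CuNZ@Gel, applied as an extract over 48 h, each with 2 immunoprecipitated libraries. The series concerns a nanozyme hydrogel, and the labels do not spell out either treatment name. How the Gel cells were handled rests on their treatment label, since the shared protocol names extracts of CuNZ@Gel alone. All libraries come from a single line. Whether replicates were grown as separate cultures is not stated, so p-values measure only the spread between these libraries, which may be technical. The labelled cell type was not checked against marker genes, because that needs an annotation of the build. In a bulk immunoprecipitation, a mark carried by fewer cells and a weaker mark in every cell cannot be told apart.

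H3ac is carried by nucleosomes at active promoters and enhancers, and its presence does not measure transcription. Il10 encodes interleukin 10, a cytokine by which macrophages restrain inflammation, acting through its receptor and Stat3. Tgfb1 encodes transforming growth factor beta 1, secreted in a latent form, which drives matrix deposition and limits immune activation once released. Vegfa encodes vascular endothelial growth factor A, the main growth signal for new blood vessels, which macrophages secrete in healing wounds and under low oxygen. By gene order in RefSeq, the protein-coding neighbours of Il10 are Il19 and Mapkapk2, and those of Tgfb1 are B9d2 and Ccdc97. Those of Vegfa are 1600014C23Rik and Mrps18a. A peak in a window may therefore belong to a neighbour.

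The sequences around 2 of the 3 gene starts, those of Tgfb1 and Vegfa, are shown, as the promoters used here held no match for Il10. They are RefSeq promoters of build GRCm38.p6, from 250 bases before to 50 after the start, at chr7:25686752-25687051 on the plus strand for Tgfb1 and at chr17:46032328-46032627 on the minus strand for Vegfa. These positions are of another build than the peaks and cannot be set against them, so whether the sequences lie under a peak is not stated. Capitals mark the GC box GGGCGG, the core site of the Sp family of transcription factors, and its reverse complement CCGCCC.
Tgfb1: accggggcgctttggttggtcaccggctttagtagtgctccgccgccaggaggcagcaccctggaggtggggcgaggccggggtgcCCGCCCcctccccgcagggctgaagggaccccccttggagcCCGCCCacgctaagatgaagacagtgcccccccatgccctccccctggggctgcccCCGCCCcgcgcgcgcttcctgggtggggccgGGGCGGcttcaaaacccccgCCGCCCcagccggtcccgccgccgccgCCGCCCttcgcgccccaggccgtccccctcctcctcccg
Vegfa: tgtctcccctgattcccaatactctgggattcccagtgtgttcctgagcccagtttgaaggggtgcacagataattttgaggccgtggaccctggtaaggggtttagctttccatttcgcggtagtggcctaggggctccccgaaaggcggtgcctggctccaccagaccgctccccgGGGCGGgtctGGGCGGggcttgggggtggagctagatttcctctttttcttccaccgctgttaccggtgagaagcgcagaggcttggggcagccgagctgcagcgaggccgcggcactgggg
The Tgfb1 promoter held 6 GC boxes and 30 CG dinucleotides in 300 bases, with 77% G and C. The Vegfa promoter, the first of 2 listed for this gene, held 2 GC boxes and 16 CG dinucleotides, with 62% G and C. Of all 32851 promoters of this length, 35.7% held at least 1 GC box on either strand, and the median number of CG dinucleotides was 7. A match is a description of the letters and not a bound site.

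The CuNZ@Gel lists were shorter and covered less of the genome. Depth was read from each list's commonest background in fragments, which was 4.28 to 4.62 in the Gel libraries and 2.46 to 3.45 in the CuNZ@Gel libraries. Peaks on chromosomes numbered 58612 to 60483 in Gel and 34693 to 40075 in CuNZ@Gel. Across the genome, the mean covered length in CuNZ@Gel was 56.6% of that in Gel. Every difference below stands beside this lower depth. Scaling the lists to equal depth, by the commonest background, shows which peaks would still be listed, but each keeps its deposited width, so the part of depth in the width of a peak was not tested.

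All 3 windows carried H3ac in all 4 libraries, and all 3 had fewer bases under peaks in CuNZ@Gel. In the Il10 window, peaks covered 1584 and 1262 bp in the first and second Gel library, against 620 and 934 bp in the first and second CuNZ@Gel library. Pairs of values below keep this order. In the Tgfb1 window the widths were 7669 and 9088 bp against 4996 and 4583 bp. In the Vegfa window they were 4857 and 5588 bp against 3645 and 3372 bp. The groups did not overlap in any of the 3 windows. Other windows were not counted, but 74.5% of regions with peaks in all 4 libraries were narrower in both CuNZ@Gel than in both Gel libraries. The means were 1423 ± 228 and 777 ± 222 bp at Il10 (SD, n = 2), 8379 ± 1003 and 4790 ± 292 bp at Tgfb1 (SD, n = 2), and 5223 ± 517 and 3509 ± 193 bp at Vegfa (SD, n = 2). CuNZ@Gel thus had 54.6%, 57.2% and 67.2% of the Gel width, beside 56.6% across the genome. In a two-sided exact permutation test each window gave p = 0.333, which is as small as 2 against 2 libraries allow. Counting only peaks still listed at equal depth, with their deposited widths, the shares were 59.7%, 58.6% and 73.3%. The difference at Tgfb1 was -3589 bp, and it was -1812.5 bp with lists of equal length and -1126 bp with 5 kb taken off each end of the window. At Vegfa it was -1714 bp, and -517 bp with lists of equal length.

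**Figure D1:**
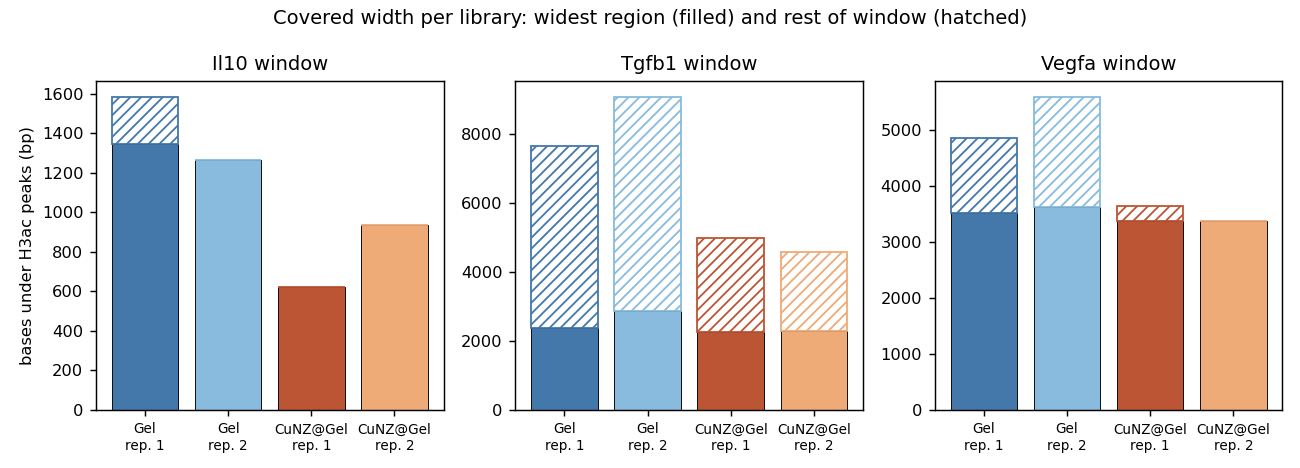
Bases under H3ac peaks (y axis, bp, starting at 0) in each library for the 3 windows, split into the widest region of the window (filled) and all other regions (hatched). Each bar is 1 library. Most of the Tgfb1 and Vegfa differences lies in the hatched part. It held 5284 and 6227 bp in Gel against 2750 and 2304 bp in CuNZ@Gel at Tgfb1. At Vegfa it held 1350 and 1967 bp in Gel against 281 and 0 bp in CuNZ@Gel.

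The number of peaks differed between windows in how far it followed the width. The Il10 window had 2 and 1 peaks in Gel and 1 and 2 in CuNZ@Gel, so the groups had the same mean of 1.5. The Tgfb1 window had 11 and 9 peaks in Gel and 8 in each CuNZ@Gel library (exact permutation p = 0.333). The Vegfa window had 6 and 5 peaks in Gel and 2 and 1 in CuNZ@Gel (exact permutation p = 0.333). With all lists cut to the length of the shortest, by −log10 p, the Tgfb1 order turned, to 5 and 5 peaks in Gel against 7 and 8.

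**Figure D2:**
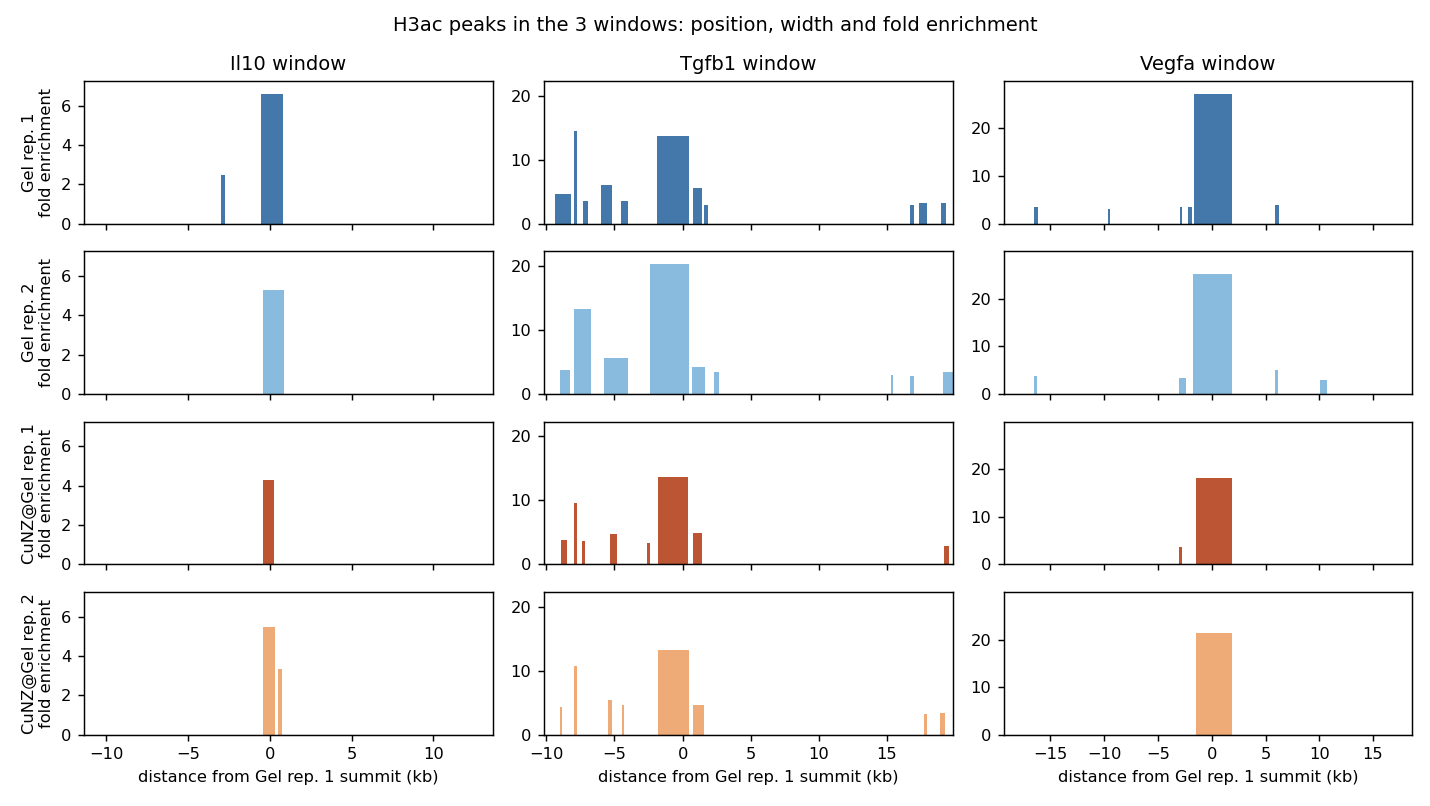
Position, width and fold enrichment of every peak in the 3 windows (columns) and 4 libraries (rows). The x axis is the distance in kb from the Gel replicate 1 summit of the widest region, the y axis the authors' fold enrichment on a scale shared within a column, and each bar spans 1 peak. All 4 libraries show a tall block at 0 in each window, while the small side peaks of the Vegfa window are mostly missing from the CuNZ@Gel rows.

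The Il10 window held a single H3ac region of moderate strength in all libraries, and little else. This was region 2, from 130945835 to 130947190. The peak was 1343 bp wide in Gel replicate 1 and 1262 bp in Gel replicate 2. In CuNZ@Gel replicate 1 it was 620 bp wide, and in CuNZ@Gel replicate 2 it was split into peaks of 693 and 241 bp. The CuNZ@Gel peaks were narrower mainly on the side of higher coordinates. The left edge lay at 130945835 and 130945929 in Gel and at 130945965 and 130945946 in CuNZ@Gel. The right edge lay at 130947177 and 130947190 in Gel, at 130946584 in CuNZ@Gel replicate 1, and at 130946638 for the main peak and 130947119 for the small peak of CuNZ@Gel replicate 2. That small peak had a local background of 1.55 times the library background.

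The fold enrichment of Il10 region 2, the authors' value of signal over background at the summit, was 6.59 in Gel replicate 1 and 5.30 in Gel replicate 2. It was 4.27 in CuNZ@Gel replicate 1 and 5.50 in CuNZ@Gel replicate 2, so the groups overlapped. Summit height, the summit fragments divided by the library background, was 7.80 and 6.30 against 5.22 and 7.33. The means of 7.05 ± 1.06 and 6.27 ± 1.49 (SD, n = 2) differed by less than the spread of the CuNZ@Gel pair (exact permutation p = 0.667). The summits lay at 130946353 and 130946076 in Gel and at 130946354 and 130946247 in CuNZ@Gel, a range of 278 bp in which the groups overlapped. The other Il10 region, from 130943387 to 130943627, was a 241 bp peak with a fold of 2.49 in Gel replicate 1 alone. No library had a peak in the 12.8 kb from 130947191 to the end of the window.

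The Tgfb1 window was the richest, with 6 regions that had peaks in all 4 libraries. Most lay in a run of regions from 25378842 to 25390847. The strongest and widest was region 5, from 25385818 to 25388678. Its peak was 2385 and 2861 bp wide in Gel, and 2246 and 2279 bp wide in CuNZ@Gel. Both CuNZ@Gel widths lay below both Gel widths, but the Gel libraries differed from each other by more than Gel replicate 1 differed from CuNZ@Gel. The fold was 13.7 and 20.2 in Gel and 13.7 and 13.3 in CuNZ@Gel. In Gel replicate 1 the local background was 1.27 times the library background, which lowers its fold. Summit height was 20.2 and 24.7 against 18.0 and 18.3, with means of 22.4 ± 3.25 and 18.2 ± 0.232 (SD, n = 2, exact permutation p = 0.333).

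The summit of Tgfb1 region 5 lay elsewhere in the region in CuNZ@Gel. It was at 25388176 and 25388128 in Gel, near the end of the region with higher coordinates. In CuNZ@Gel replicate 1 it was at 25387306 and in CuNZ@Gel replicate 2 at 25387702, both nearer the middle. The mean positions were 648 bp apart, where the Gel pair differed by 48 bp and the CuNZ@Gel pair by 396 bp. Among 1255 regions with peaks in all 4 libraries and a Gel width within 10% of this one, the median distance between group means was 69 bp, and 95.1% had a smaller one. Summits of the groups did not overlap in 37.2% of all regions with peaks in all 4 libraries, so the order alone is common and the distance is what stands at the upper end. By the range over the 4 libraries, 870 bp, the place was less extreme, as 89.5% of the 1255 regions had a smaller range (median 188 bp). A broad peak can have several local maxima of like height, and the lists give only the highest.

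**Figure D3:**
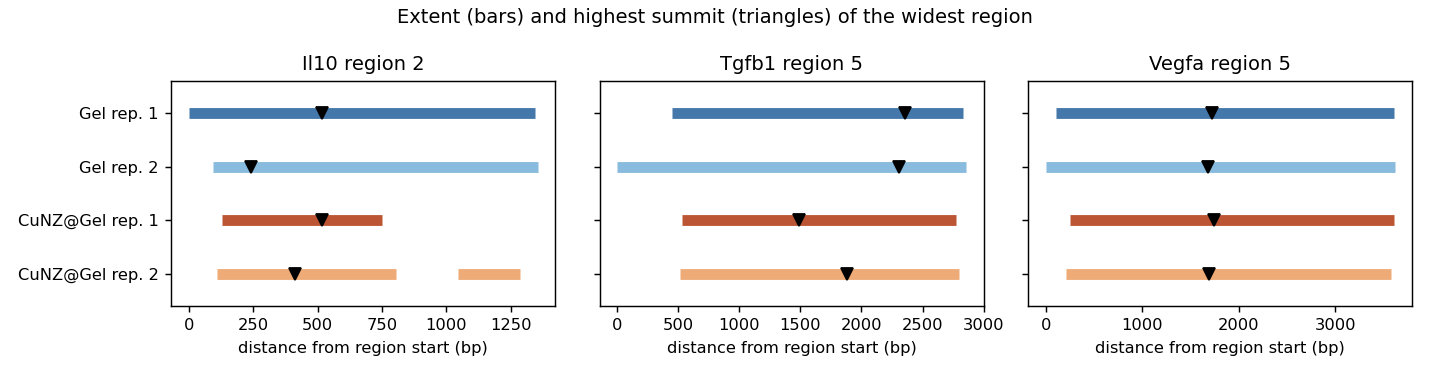
Extent (bars) and highest summit (triangles) of the widest region of each window in each library, with distance from the region start in bp on the x axis. The Vegfa summits lie within 62 bp of each other, the Tgfb1 summits lie further left in CuNZ@Gel, and the Il10 bars end earlier in CuNZ@Gel replicate 1 and are split in CuNZ@Gel replicate 2.

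Region 2 of the Tgfb1 window, from 25380180 to 25381479, held a narrow and strong peak. Its fold was 14.4 and 13.2 in Gel and 9.67 and 10.7 in CuNZ@Gel, and its height 17.3 and 16.1 against 12.2 and 14.7. Both measures were lower in both CuNZ@Gel libraries (exact permutation p = 0.333 for height). The strong peak was 280 bp wide in Gel replicate 1, 225 bp in CuNZ@Gel replicate 1 and 219 bp in CuNZ@Gel replicate 2. In Gel replicate 2 it was joined to the neighbouring weak signal in a peak of 1294 bp. The covered width of the region, 656 and 1294 bp against 426 and 219 bp, therefore includes the weak flank.

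The other Tgfb1 regions shared by all libraries were weaker. Region 3, from 25382191 to 25384166, had 1327 and 1711 bp under peaks in Gel against 564 and 516 bp in CuNZ@Gel. Its heights overlapped, with 7.15 and 6.77 against 5.80 and 7.33. Region 1, from 25378842 to 25379976, had 1135 and 774 bp against 458 and 186 bp. Its height was 5.42 and 4.44 in Gel and 6.09 and 5.70 in CuNZ@Gel, higher in the latter, but its fold of 4.63 and 3.78 against 3.88 and 4.34 overlapped and its unscaled fragments were fewer by 4.5 in CuNZ@Gel. The local background of region 1 in CuNZ@Gel replicate 1 was 1.35 times the library background. Region 6, from 25388901 to 25390027, lies next to region 5 and had 928 and 924 bp against 689 and 828 bp. The CuNZ@Gel mean was 81.9% of the Gel mean. Its height was 6.93 and 6.54 in Gel and 6.09 and 6.11 in CuNZ@Gel. Its fold overlapped between the groups, with 5.55 and 4.24 in Gel against 4.95 and 4.63 in CuNZ@Gel. The local background of region 6 in Gel replicate 2 was 1.36 times the library background. Region 11, at the end of the window from 25407078 to 25408009, had 405 and 689 bp against 354 and 330 bp.

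Between the run of regions and the end of the Tgfb1 window, no library had a peak in the 12.6 kb from 25390848 to 25403466. Region 9, from 25404866 to 25405164, had a peak in both Gel libraries, of 252 and 299 bp with folds of 2.85 and 2.87, and in neither CuNZ@Gel library. Region 10 had a peak in Gel replicate 1 and in CuNZ@Gel replicate 2, of 581 and 225 bp. Regions 7 and 8 had peaks in Gel replicate 2 alone, with folds of 3.41 and 3.03. The only region of the 3 windows that was present in CuNZ@Gel and absent in Gel was Tgfb1 region 4, from 25385528 to 25385786. It was a 259 bp peak with a fold of 3.37 in CuNZ@Gel replicate 1 alone, just left of region 5.

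The Vegfa window was led by the strongest and widest H3ac region of the 3 windows. Region 5, from 46339623 to 46343243, was 3507 and 3621 bp wide in Gel, and 3364 and 3372 bp wide in CuNZ@Gel. The CuNZ@Gel mean was 94.5% of the Gel mean. Its mean Gel fold of 26.2 exceeded that of 97.2% of 39317 regions found in both Gel libraries, and its Gel width that of 98.0%. The right edge hardly differed, at 46343236 and 46343243 in Gel and 46343237 and 46343204 in CuNZ@Gel. The left edge lay further in, at 46339874 and 46339833 in CuNZ@Gel against 46339730 and 46339623 in Gel.

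The fold of Vegfa region 5 was 27.2 and 25.2 in Gel and 18.2 and 21.5 in CuNZ@Gel. Its height was 32.9 and 30.8 against 23.2 and 30.5, with means of 31.9 ± 1.50 and 26.9 ± 5.17 (SD, n = 2, exact permutation p = 0.333). CuNZ@Gel replicate 2 lay just under the lower Gel library, and CuNZ@Gel replicate 1 well below it. The summits lay at 46341344 and 46341303 in Gel and at 46341365 and 46341318 in CuNZ@Gel, with the groups overlapping. This range of 62 bp was smaller than the median of 198 bp over 594 regions of like Gel width.

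The weak regions around Vegfa region 5 differed more between the groups than region 5 itself. Outside region 5, peaks covered 1350 and 1967 bp of the window in Gel and 281 and 0 bp in CuNZ@Gel, or 1659 ± 436 and 140.5 ± 199 bp (SD, n = 2, exact permutation p = 0.333). Region 6, from 46347192 to 46347556, had peaks of 291 and 346 bp with folds of 3.92 and 5.11 in Gel and none in CuNZ@Gel. Region 1, from 46324781 to 46325162, had peaks of 306 and 286 bp with folds of 3.38 and 3.78 in Gel and none in CuNZ@Gel. At equal depth, both regions still had their peaks in both Gel libraries, whereas Tgfb1 region 9 had none in either. With lists of equal length, the bases outside region 5 were 291 and 632 bp in Gel against 281 and 0 bp in CuNZ@Gel, a difference of -321 bp in place of -1518 bp, and Vegfa region 1 had no peak in Gel replicate 1. Region 3, from 46338261 to 46338940, had 177 and 680 bp in Gel, 281 bp in CuNZ@Gel replicate 1 and no peak in CuNZ@Gel replicate 2. Regions 2 and 4 were seen in Gel replicate 1 alone and region 7 in Gel replicate 2 alone, with folds of 3.03 to 3.56.

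Of the 20 regions, 8 had peaks in all 4 libraries, 1 in 3, 4 in 2 and 7 in 1 library. Across the genome, 21909 of 81544 regions had peaks in all 4 libraries and 43964 in at least 2, beside 13 of the 20 members. Of the 12 with peaks in both Gel libraries, 3 had none in CuNZ@Gel, 1 was found in just 1 CuNZ@Gel library and 8 in both. The 3 of 12 stand beside a background of 24.9% over all regions with peaks in both Gel libraries, a share like that of the members. Both CuNZ@Gel widths lay under both Gel widths in all 8 regions with peaks in the 4 libraries, beside a background of 74.5%, and the reverse held in 0, beside 1.26%. Height was lower in both CuNZ@Gel libraries in 4 of the 8, beside 56.6% of all such regions. These 4 were Tgfb1 regions 2, 5 and 6 and Vegfa region 5, and the folds of the groups overlapped at Tgfb1 region 6. Height was higher in both in 1, Tgfb1 region 1, beside 7.21%, a direction that the fold and the unscaled fragments did not share.

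**Figure D4:**
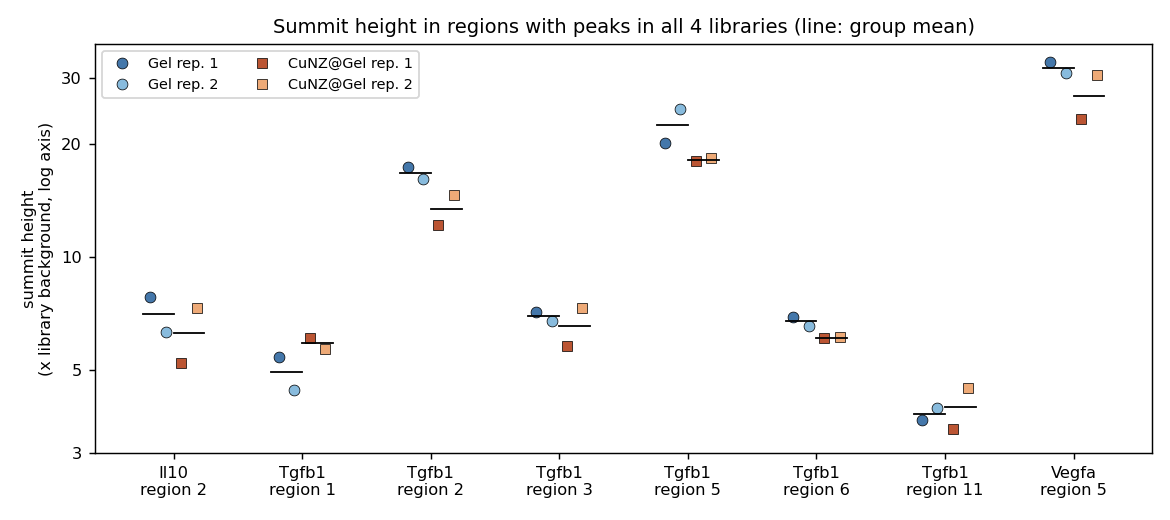
Summit height in multiples of the library background (y axis, log scale) for the 8 regions with peaks in all 4 libraries. Circles are Gel and squares CuNZ@Gel libraries, and lines are group means; Vegfa region 5 is the highest, with 30.8 and 32.9 in Gel and 23.2 and 30.5 in CuNZ@Gel, while the groups overlap at Il10 region 2 with 6.30 and 7.80 against 5.22 and 7.33.

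The regions were then set beside all regions of the genome whose mean Gel fold lay within 10% of theirs, as a description without a test. Il10 region 2, with a mean Gel fold of 5.94, had 3565 such regions. Of these, 4.01% had no CuNZ@Gel peak (95% Wilson interval 3.42 to 4.71%, counting error only), 16.0% were found in 1 CuNZ@Gel library and 79.9% in both, as Il10 was. Its CuNZ@Gel width of 59.7% of Gel lay near their median of 58.7% (quartiles 39.9 and 75.1%). Its height ratio of 89.0% lay near the median of 87.2% over the 2850 of them with peaks in all libraries. Both Il10 ratios lay between the quartiles of regions of its strength.

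Tgfb1 region 5, with a mean Gel fold of 17.0, had 1668 like regions, all with peaks in both CuNZ@Gel libraries. Its width ratio of 86.3% lay above the median of 78.0% and just under the upper quartile of 87.6%, and was 79.1% without Gel replicate 1, beside a median of 78.9%. Its height ratio of 80.9% stood beside a median of 75.2%. This ratio was 73.4% without Gel replicate 1, beside a median of 74.9%, and 90.1% without Gel replicate 2. Tgfb1 region 2 differed: its width ratio of 33.1% was undercut by only 0.594% of 1853 like regions, whose median was 78.0%. Without Gel replicate 2, the library in which the strong peak was joined to its flank, the ratio was 49.2%, and 3.56% of like regions, treated the same way, had a lower one. Both ratios include the weak flank, which in Gel replicate 1 was a peak of 376 bp. The strong peak alone was 280 bp wide in that library, and 225 and 219 bp in CuNZ@Gel. The height ratio of region 2, 80.2%, lay above the median of 76.6% of like regions. It was 72.9% without CuNZ@Gel replicate 2, beside a median of 75.1%. Region 3 had a width ratio of 35.5%, beside a lower quartile of 38.9% over 3682 like regions. Region 6 had 81.9%, beside an upper quartile of 63.8% over 5240 like regions.

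Vegfa region 5 had 766 like regions, all with peaks in both CuNZ@Gel libraries. Its width ratio of 94.5% exceeded that of 90.6% of them (median 80.8%), and its height ratio of 84.3% exceeded that of 91.5% (median 71.1%). The height ratio rests on CuNZ@Gel replicate 2: without it the ratio was 72.8%, above that of 59.7% of like regions (median 70.6%), and without CuNZ@Gel replicate 1 it was 95.8%. The width ratio was 93.0 to 96.0% without any 1 library, above that of 82.5 to 90.9% of like regions. It was also wider than most, as the median Gel width of the like regions was 2314 bp. Among the 190 regions alike in Gel fold within 10% and in Gel width within 20%, 91.1% had a lower width ratio and 87.9% a lower height ratio. For the weak regions that lacked a CuNZ@Gel peak, the share of their like that also lacked one varied. No CuNZ@Gel peak was found in 73.6% of the 3474 regions like Tgfb1 region 9 and in 51.3% of the 8322 like Vegfa region 1. Among the 6187 regions like Vegfa region 6 the share was 22.1%. Of these, 34.8% had a peak in 1 CuNZ@Gel library and 43.1% in both, so absence was less common there.

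**Figure D5:**
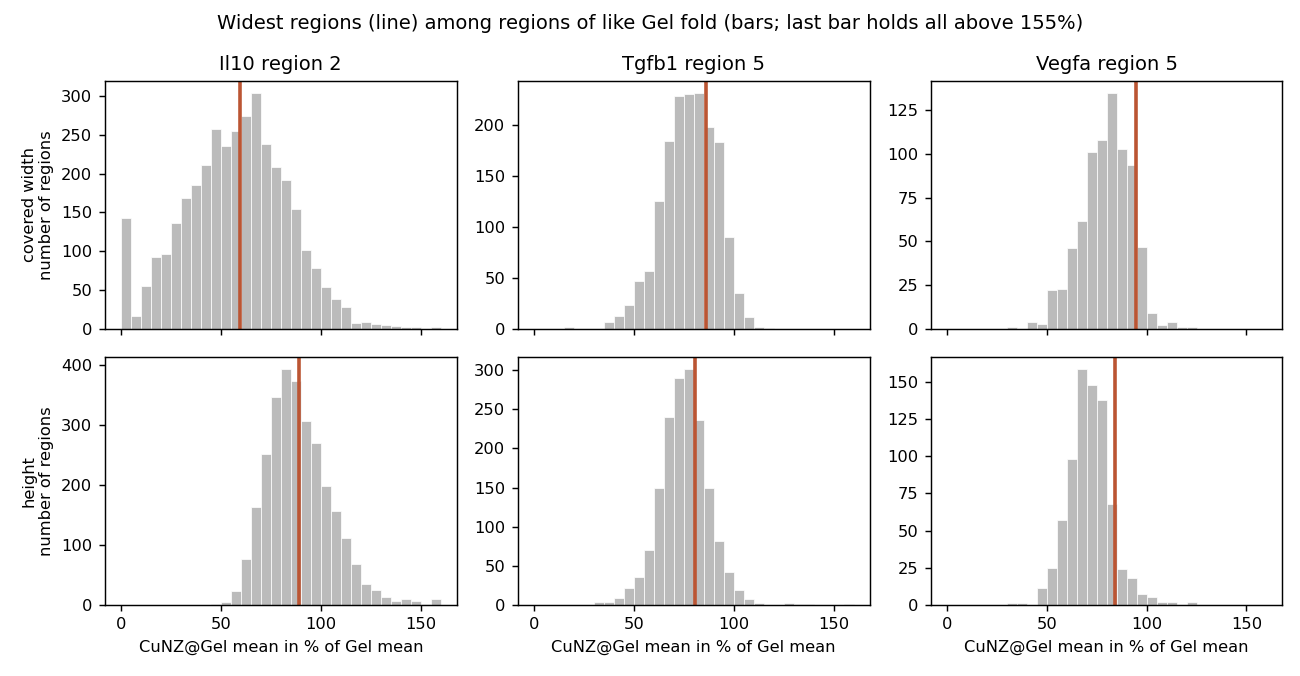
CuNZ@Gel mean in percent of the Gel mean (x axis) for covered width (top) and summit height (bottom) in regions of like Gel fold (grey bars, number of regions), with the widest region of each window as a line. Height is shown only for like regions with peaks in all 4 libraries. The Il10 line at 59.7% of Gel width lies near the middle of its regions, and the Vegfa line at 94.5% lies in their upper part.

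In a fit of covered width over all 43964 regions with peaks in at least 2 libraries, limma called none at an adjusted p of 0.05, in either direction (0% lower and 0% higher). An unadjusted limma p under 0.05 was reached by 19298 regions (43.2% lower and 0.653% higher). The smallest limma adjusted p, 0.0502, was shared by 6164 regions, and Tgfb1 region 3 was among them, with a difference of -979 ± 163 bp (estimate ± limma's standard error, as below). Tgfb1 region 9 and Vegfa regions 1 and 6 had the same adjusted p. They entered the fit only through their Gel peaks and stand at 0 bp in both CuNZ@Gel libraries, so the sign of their difference was fixed by the filter. Il10 region 2 differed by -525.5 ± 143 bp (limma adjusted p = 0.0764). Tgfb1 region 5 differed by -360.5 ± 205 bp (limma adjusted p = 0.251), and this value was -122.5 bp without Gel replicate 2 and -598.5 bp without Gel replicate 1. Vegfa region 5 differed by -196 ± 133 bp (limma adjusted p = 0.314). In a fit of the 21909 regions with peaks in all 4 libraries, limma called 1 of the 8 members lower, Tgfb1 region 3 (adjusted p = 0.0308), beside 17.6% of all regions in that fit. The median difference over these 8 was -443 bp, beside -298 bp over all regions in that fit. Quantile normalization of the widths brought the main differences to -585.5 bp at Tgfb1 region 3 and -126.75 bp at Il10 region 2. It turned those of Tgfb1 region 5 and Vegfa region 5 to 290 and 621 bp.

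Regions elsewhere with the most similar widths in the 4 libraries were found by Euclidean distance. For Il10 region 2 they lay on chromosome 14 from 45588665 to 45590061, on chromosome 5 from 113183136 to 113184482 and on chromosome 13 from 45550242 to 45551565, at distances of 67.2, 79.5 and 96.7 bp. For Tgfb1 region 5 they lay on chromosome 11 from 54851538, on chromosome 12 from 105650068 and on chromosome 13 from 56281067, at 105, 119 and 146 bp. For Vegfa region 5 they lay on chromosome 17 from 30792822, on chromosome 19 from 5709964 and on chromosome 15 from 81740629, at 146, 161 and 174 bp. The Gel folds of the last 3 were 19.7, 9.92 and 18.0, all below the 26.2 of Vegfa.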

How the data were processed

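H3ac peaks of 4 libraries, Gel and CuNZ@Gel replicates 1 and 2, were used, and the 4 input libraries were not analysed here. The build was GRCm39 and the tools included MACS2 2.2.8, SAMtools 1.17, deepTools 3.5.6 and fastp, per the submitters' processing notes. Aligner and options of the peak caller: not given in the sources used here. Per the labels, fixation took 10 min in 1% formaldehyde and shearing gave fragments of 150 to 350 bp. The deposited lists, 1 per library, give for each peak a score, a fold enrichment ratio, a −log10 p, a −log10 q and a summit offset. The score equals the −log10 q times 10, cut to a whole number, for at least 99.9856% of the deposited peaks of each list. The lowest −log10 q in the deposited lists corresponds to a q-value of 0.05. The group lists were not used, as their intervals are pieces of the replicate peaks.

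Starts were made 1-based and the 19 autosomes, X and Y were kept. Summit fragments and background were solved from fold and −log10 p, which succeeded for all peaks at a relative tolerance of 0.0001 and was tested on simulated data. A library's commonest background scaled its heights and stood for depth, since the files hold no read totals. The fit of width over regions used limma 3.58.1 under R 4.3.3, with its trend and robust options and Benjamini-Hochberg adjustment. Its mean estimate of a known difference was tested on simulated data, with no condition set on its calls. For window values and heights, all 6 assignments of libraries to groups entered a two-sided exact permutation test. Python 3.11.15, numpy 2.4.6, pandas 2.3.3, scipy 1.17.1 and matplotlib 3.10.9 were used. At equal depth, fragments and background were scaled to the shallowest library, and a peak was kept if its Poisson p still passed that library's limit, with its width as deposited, since the reads needed to call it again were not used. Named items are the 3 genes with every region in their windows, and the 3 regions nearest in width to the widest region of each. Alternatives changed the peak threshold, list length, depth, window, unit, scale, fit and libraries. The members, lists and the unit of the fit were chosen with earlier results of these data known. The comparisons by like Gel width, those of like regions without 1 library, and the bases outside the widest region under other settings were added after seeing the data. Pathway genes and cell type markers were not analysed here, as they need an annotation of GRCm39. Promoters matched 2 of 3 members.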

Additional observations from a re-analysis of the deposited data

How the results depend on the processing

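Under all alternatives computed, covered width of the 3 windows was lower in CuNZ@Gel, and since the groups do not overlap, dropping a library cannot turn this. The differences were -646, -3589 and -1714 bp at Il10, Tgfb1 and Vegfa, -525.5, -3264.5 and -1275 bp at equal depth, and -525.5, -1812.5 and -517 bp with equal list length. With the windows reduced by 5 kb on each side, Tgfb1 dropped to -1126 bp, as its left regions fall outside. Peak number in the Tgfb1 window reversed to 2.5 more in CuNZ@Gel with equal list length. In the Il10 window the difference of 0 became 0.5 at the stricter threshold (q of 0.001), at equal length and at equal depth, and ranged from -0.5 to 0.5 without any 1 library.

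Height was less stable. The difference at Il10 region 2 ranged from -1.83 to 0.27 without any 1 library and was 0.27 without CuNZ@Gel replicate 1. Tgfb1 region 5 ranged from -6.59 to -2.0, without Gel replicates 1 and 2, and Vegfa region 5 from -8.67 to -1.35, the last without CuNZ@Gel replicate 1. Tgfb1 region 1 reversed to -4.5 in unscaled fragments and -0.10 in fold, region 11 to -5.5 and -0.11. Without any 1 library, region 11 ranged from -0.34 to 0.65 and region 3 from -1.16 to 0.37.

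Calls over all regions depended on the fit. Lower and higher calls, 0 and 0 in limma with 19298 regions at an unadjusted p under 0.05, were 3860 and 13 over regions in all 4 libraries, 12321 and 254 with log2(width + 100 bp), 7353 and 77 at the stricter threshold, 3458 and 14 without trend and robust, and 4536 and 14 among regions averaging 500 bp or more. Without any 1 library they ranged from 0 to 10252 and from 0 to 61, the high values when a Gel library was left out, and the fit then takes the spread from the remaining pair. With 1 Gel library left, members at 0 bp in both CuNZ@Gel libraries have no spread, and no member call is used. With all 4 libraries, Tgfb1 region 3 was called on log2 widths (28% of regions called lower). It was also called over regions in all 4 libraries (17.6%) and at 500 bp (24.4%). It was not called with a replicate block (limma adjusted p = 0.0598) or without trend and robust (limma adjusted p = 0.0528). Its difference ranged from -1171 to -787 bp without any 1 library. Bins of 4 kb and quantile normalization gave 0 calls. Quantile normalization moved the median difference of all regions from -293 to 18.6 bp. Under it the differences shrank to -7.38 bp at Tgfb1 region 9, -17.6 bp at Vegfa region 1, -29.1 bp at Vegfa region 6 and -126.75 bp at Il10 region 2, and turned to 621 bp at Vegfa region 5 and to 290 bp, 205.5 bp, 50.6 bp and 118 bp at Tgfb1 regions 5, 6, 10 and 11. Without any 1 library, the width difference ranged from -468.5 to 112.5 bp at Tgfb1 region 10, from -971.5 to -333.5 bp at region 2, from -598.5 to -122.5 bp at region 5, from -347 to -63 bp at region 11 and from -539.5 to -36.5 bp at Vegfa region 3. The cause was not tested.

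With Gel fold within 5% or 20%, regions like Il10 region 2 lacked CuNZ@Gel peaks in 3.36% or 5.78% of cases. Counting a library only if it covered 50% of the Gel width gave 20.7% at Il10, where CuNZ@Gel replicate 1 then fails, and 1.32% for regions like Tgfb1 region 5.

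With a replicate block the window differences stay -646, -3589 and -1714 bp by construction, the smallest exact sign-flip p for 2 pairs is 0.5, and limma called 0 regions. Over regions, the correlation between the deviations of libraries with the same number was 0.0064, so nothing shows that the numbers mark pairs.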
